A study of Mus musculus with 6 samples.

Results

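The 10 genes described here encode inhibitors that cells make to limit MAP kinase signalling: the dual-specificity phosphatases Dusp1, Dusp2, Dusp4, Dusp5 and Dusp6, the Sprouty proteins Spry1, Spry2 and Spry4, and the Spred proteins Spred1 and Spred2. They were taken by symbol from a table of 53797 genes, and each symbol was found there. MLO-Y4 cells, a mouse osteocyte-like cell line grown in α-MEM with serum, were compared as 3 cultures exposed to low intensity pulsed ultrasound (LIPUS, 1.5 MHz at 30 mW/cm2 for 20 min) and 3 unexposed Control cultures, with RNA taken 30 min after the exposure ended. All cultures are of this 1 cell line, which was derived from a mouse with an immortalising large T antigen transgene under the osteocalcin promoter, and the labels name no agent other than LIPUS. Exposed and unexposed wells shared plates of 6 wells, with 3 transducers plugged in and 3 unplugged. The table gives 1 FPKM (fragment count scaled by transcript length and by library size) per group, pooled over 3 libraries, so that no spread between cultures can be given. The methods state 1 round read depth for all samples, and the depth of each library cannot be read from the table. The table's own test results were not used, so that every difference below compares 2 pooled values without a test. The study's text also describes a Control culture that lay apart from the other Control cultures, and its part in the values below was not tested. In pooled RNA, fewer cells with a transcript and less of it per cell cannot be told apart.

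MAP kinases are switched on by phosphorylation of a threonine and a tyrosine, and the dual-specificity phosphatases remove both phosphates. Sprouty and Spred proteins act higher in the cascade, between receptor tyrosine kinases and Raf, the kinase that starts the ERK cascade. Several of these genes are themselves switched on within minutes to hours of ERK activity, so that they form a negative feedback loop, and their transcripts are widely used as readouts of recent ERK signalling. In osteocytes, the cells embedded in bone matrix, MAP kinases are known to respond to mechanical load.

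The cell line was checked against markers. Of 13 osteocyte and osteoblast markers, 7 were tested by Cuffdiff (status OK in the table). The summed FPKM over all 13 was 6204 in Control and 5678 in LIPUS, most of it from Spp1, at 4514 and 4158 FPKM. The late osteocyte genes Sost, Mepe and Fgf23 were at 0 in both groups, while Dmp1, an osteocyte matrix gene, was at 3.04 FPKM in Control and 7.65 FPKM in LIPUS. Of the 7 tested markers, Dmp1 was at least 1.5-fold higher and 2 were at least 1.5-fold lower: the osteoblast transcription factor Runx2, at 24.4 FPKM in Control and 14.8 FPKM in LIPUS, and the phosphatase Alpl, at 293 and 190 FPKM. Over all 8145 genes with status OK, 4.70% were at least 1.5-fold higher and 4.71% lower, and at a mean under 10 FPKM, where Dmp1 lies, 10.9% and 11.5%. Among genes with status OK the lowest maximum of the 2 groups was 6.70 FPKM, so that Dmp1 had this status only through its LIPUS level. None of the 7 immune markers had status OK, and 5 of them were at 0 in both groups. Summed levels of those markers were 5.55 FPKM in Control and 1.96 FPKM in LIPUS, most of it from Cd68, a lysosomal protein abundant in macrophages, at 5.32 and 1.72 FPKM. Endothelial markers summed to 0.496 FPKM in Control and 0 in LIPUS, with 4 of 5 at 0 in both groups. Epithelial markers summed to 0.201 and 0.514 FPKM, again with 4 of 5 at 0 in both groups.

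Among the feedback inhibitors, the nuclear phosphatases Dusp5, Dusp4 and Dusp2 were higher in LIPUS by 1.53-fold, 1.33-fold and 1.36-fold, while the nuclear phosphatase Dusp1 was lower, at 0.718 of its Control level. The cytoplasmic phosphatase Dusp6, Spry2 and Spred1 differed by 1.08-fold to 1.16-fold, and Spred2 was at 0.829 of its Control level. Of the 10 members, 8 had status OK, and Spry1 and Spry4 did not. Of these 8, 6 had a log2 ratio of LIPUS over Control above 0 and 2 below 0. Their median log2 ratio was 0.17, beside 0.00425 over all 8145 genes with status OK. With a ratio of 1.5-fold used in place of a test, 1 member (Dusp5) was higher and 0 were lower. The same ratio was passed by 383 genes upwards, or 4.70%, and by 384 genes downwards, or 4.71%, of all genes with status OK. At a smaller limit, a log2 ratio of 0.32 in either direction, 3 members were higher (Dusp5, Dusp2 and Dusp4) and 1 was lower (Dusp1), where 13.6% of all genes with status OK were higher and 13.4% were lower. At 2-fold, 0 members passed in either direction, where 1.08% of all genes with status OK were higher and 0.945% were lower.

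**Figure D1:**
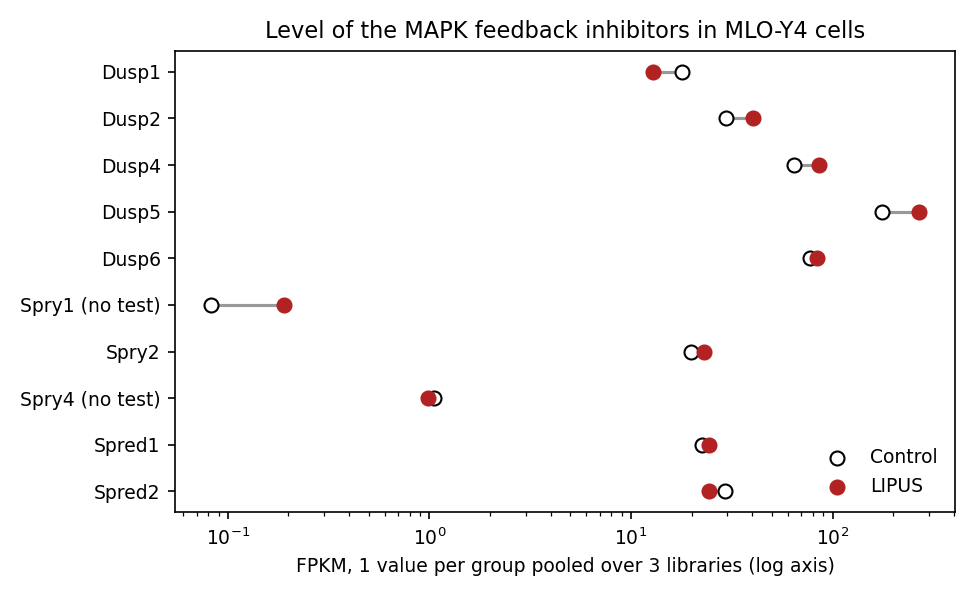
FPKM of the 10 feedback inhibitors (log axis) in Control (open circles) and LIPUS (red circles), 1 pooled value per group, with a line joining the values of each gene. Dusp5 was the highest member in both groups, at 176 and 269 FPKM, and the untested Spry1 the lowest, at 0.0823 and 0.191 FPKM.

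Dusp5, a nuclear phosphatase selective for ERK that also holds ERK in the nucleus, was the most abundant member. Its level was 176 FPKM in Control and 269 FPKM in LIPUS, a difference of 93.2 FPKM and a log2 ratio of 0.61. Of all genes with status OK, 349 had a higher ratio, and 500 had a higher Control level. Among the 951 genes with a mean of at least 100 FPKM, 2.94% were at least 1.5-fold higher and 1.68% at least 1.5-fold lower. Dusp5 lay close to the limit of 1.5-fold: after rescaling both groups to the same sum over all genes (TPM), its ratio was 1.48-fold, a log2 ratio of 0.57, and no member passed. The same rescaling left 4.05% of all genes with status OK higher and 5.70% lower. The gene occupies chr19:53529109-53542431 on the plus strand of GRCm38. Its first 547 bases are overlapped by an antisense gene, AC137853.2, that is not analysed here. The library kit kept the strand. Whether the counting used it is not given in the sources used here, and without it reads of these genes could not be told apart there.

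Dusp4, a nuclear phosphatase of ERK and JNK, was at 64.1 FPKM in Control and 85.3 FPKM in LIPUS, a log2 ratio of 0.41. Dusp2, a nuclear phosphatase best known from activated immune cells, was at 29.5 FPKM in Control and 40.2 FPKM in LIPUS, a log2 ratio of 0.44. The pan-leukocyte marker Ptprc was at 0 in both groups, and the summed immune markers, given above, were lower in LIPUS; their part in the Dusp2 values was not tested. Of all genes with status OK, 755 had a higher ratio than Dusp4 and 668 a higher ratio than Dusp2. Both had a mean between 30 and 100 FPKM, where 9.27% of 2232 genes had a log2 ratio of at least 0.32 and 8.47% of -0.32 or lower.

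Dusp1, an immediate early gene whose phosphatase acts on p38 and JNK as well as ERK, went the other way. It was at 18.0 FPKM in Control and 12.9 FPKM in LIPUS, so that the Control level was 1.39-fold that of LIPUS. Its log2 ratio was -0.48, and 571 genes with status OK had a lower ratio. In its range of 10 to 30 FPKM, 14.1% of 3536 genes had a log2 ratio of -0.32 or lower. Dusp1 was thus the phosphatase with the lowest level of the 5 and the only member of them below its Control level.

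The ratios of Dusp5, Dusp4 and Dusp2 to Dusp1 differed between the groups. The FPKM of Dusp5 was 9.78 times that of Dusp1 in Control and 20.9 times in LIPUS. Dusp4 over Dusp1 was 3.57 in Control and 6.61 in LIPUS, and Dusp2 over Dusp1 was 1.64 and 3.11. These ratios within a group do not depend on how the groups were scaled. The 4 nuclear phosphatases summed to 287 FPKM in Control and 407 FPKM in LIPUS, a ratio of 1.42. Of the sum over all 5 phosphatases, which was 365 FPKM in Control and 491 FPKM in LIPUS, Dusp5 made up 48.2% and 54.7%, and Dusp1 4.92% and 2.62%. The shares of Dusp2, at 8.10% and 8.17%, and of Dusp4, at 17.6% and 17.4%, were nearly the same in both groups.

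Dusp6, the cytoplasmic ERK phosphatase and a common marker of ERK output, was at 77.5 FPKM in Control and 84.1 FPKM in LIPUS, a log2 ratio of 0.12. Its share of the summed phosphatases was 21.2% in Control and 17.1% in LIPUS. Dusp5 over Dusp6 was 2.27 in Control and 3.20 in LIPUS.

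Of the Sprouty genes, only Spry2 had status OK. Spry2, which binds the adaptor Grb2 and the ubiquitin ligase Cbl, was at 19.7 FPKM in Control and 22.9 FPKM in LIPUS, a log2 ratio of 0.21. Spry4 was at 1.05 FPKM in Control and 0.982 FPKM in LIPUS. Spry1 was at 0.0823 FPKM in Control and 0.191 FPKM in LIPUS, nominally a ratio of 2.32. The same ratio recurred among other near-zero values. Of 2115 untested genes above 0 and at most 1 FPKM in both groups, 12 besides Spry1 had its log2 ratio within 0.002. Only 0 or 1 genes lay as close to log2 ratios 0.05 or 0.1 above or below it. Why the ratio recurs was not tested. Spry2 thus had the highest level of the Sprouty genes in both groups, and the values of Spry1 and Spry4 are too low to compare.

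The Spred genes, whose proteins bring the Ras inhibitor neurofibromin to the membrane, stood on opposite sides of their Control levels. Spred1 was at 22.4 FPKM in Control and 24.5 FPKM in LIPUS, a log2 ratio of 0.13. Spred2 was at 29.3 FPKM in Control and 24.3 FPKM in LIPUS, a log2 ratio of -0.27, so that Spred1 over Spred2 was 0.764 in Control and 1.01 in LIPUS. Their sum was 51.6 FPKM in Control and 48.7 FPKM in LIPUS. In the same range of levels, 4.30% of genes were at least 1.5-fold higher and 4.19% at least 1.5-fold lower, and neither Spred gene was.

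**Figure D2:**
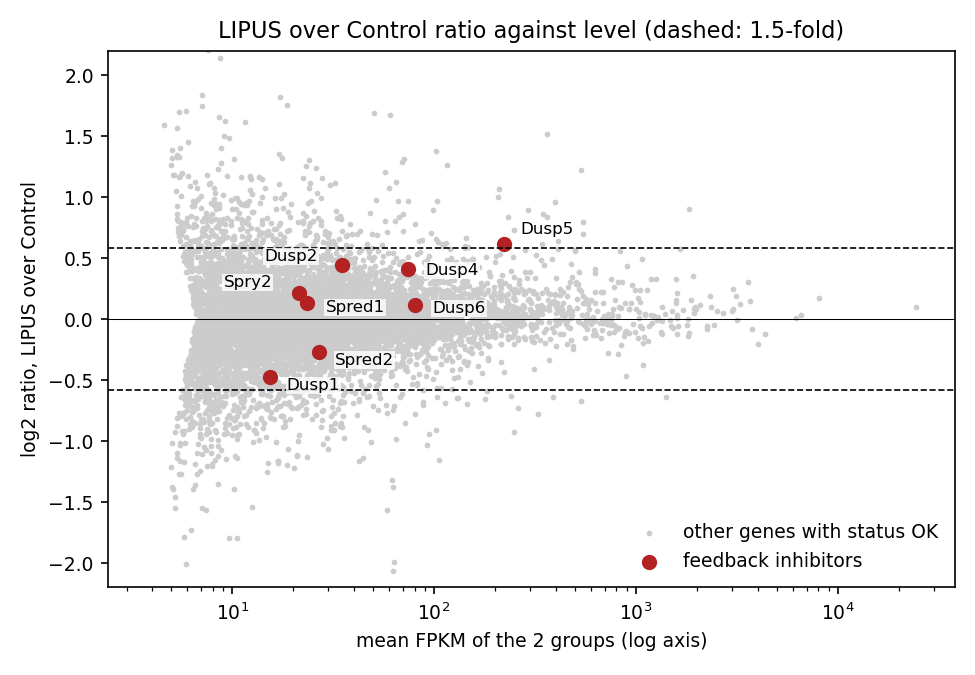
Log2 ratio of LIPUS over Control against the mean FPKM of both groups (log axis) for the genes with status OK (grey), with 8 feedback inhibitors in red and the 1.5-fold ratio as dashed lines. Dusp5 lies just above the upper line at a mean of over 100 FPKM, and Dusp1 just above the lower line. Of the grey genes, 11 genes lie outside the vertical axis.

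Other genes of the pathway were read from lists of their function. Of the 19 other dual-specificity phosphatases in the table, 5 had status OK, with a median log2 ratio of 0.0074. Among these, 1 was at least 1.5-fold higher, Dusp11, an RNA phosphatase rather than a MAP kinase phosphatase, at 28.0 FPKM in Control and 45.1 FPKM in LIPUS, where 4.70% of all genes with status OK were at least 1.5-fold higher. Spry3 and Spred3 had no test, with 0.328 and 1.29 FPKM in Control. Among 7 other brakes on Ras and ERK with status OK, 0 were at least 1.5-fold higher and 1 was lower: Cbl, a ubiquitin ligase that marks active receptors for removal, at 10.2 FPKM in Control and 6.73 FPKM in LIPUS. Of all genes with status OK, 4.71% were at least 1.5-fold lower, and 11.5% of those with a mean under 10 FPKM, as Cbl has. Errfi1, a feedback inhibitor of the EGF receptor named here after its values were seen, was at 770 FPKM in Control and 1044 FPKM in LIPUS, a log2 ratio of 0.44.

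The genes switched on by ERK gave a median log2 ratio of 0.20 over 8 genes with status OK, of which 5 were above 0 and 3 below 0. At least 1.5-fold higher were 2 of them: Phlda1, at 320 FPKM in Control and 499 FPKM in LIPUS, and Ier3, at 86.9 and 133 FPKM. Lower was 1, the receptor Epha2, at 108 FPKM in Control and 67.5 FPKM in LIPUS. The shares over all genes with status OK were 4.70% higher and 4.71% lower. After rescaling to TPM, Ier3 no longer passed the ratio.

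Transcripts of the kinases were read in the same way. Of 16 genes of the Ras to ERK cascade with status OK, with a median log2 ratio of 0.03, 1 was higher, the scaffold Ksr1, at 4.92 FPKM in Control and 7.69 FPKM in LIPUS. Of all genes with status OK, 4.70% passed this ratio upwards, and 10.9% of those with a mean under 10 FPKM, as Ksr1 has. Its Control level lay below 6.70 FPKM, the lowest maximum of the 2 groups among genes with status OK. Ksr1 thus had this status only through its LIPUS level. None of these 16 was at least 1.5-fold lower in FPKM. None of 12 genes of the JNK, p38 and ERK5 cascades passed the ratio in either direction, and their median was 0.09. The most abundant of them were the kinase Map2k3, at 107 FPKM in Control and 120 FPKM in LIPUS, and Mapkapk2, a kinase downstream of p38, at 38.9 and 50.4 FPKM. Of 12 receptor tyrosine kinases and ligands with status OK, 0 passed in either direction, with a median of 0.05. The most abundant were the EGF receptor ligands Ereg, at 243 FPKM in Control and 318 FPKM in LIPUS, and Hbegf, at 168 and 232 FPKM. In TPM, the medians of the other phosphatases, the other brakes and the Ras to ERK cascade turned to -0.04, -0.0052 and -0.01.

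**Figure D3:**
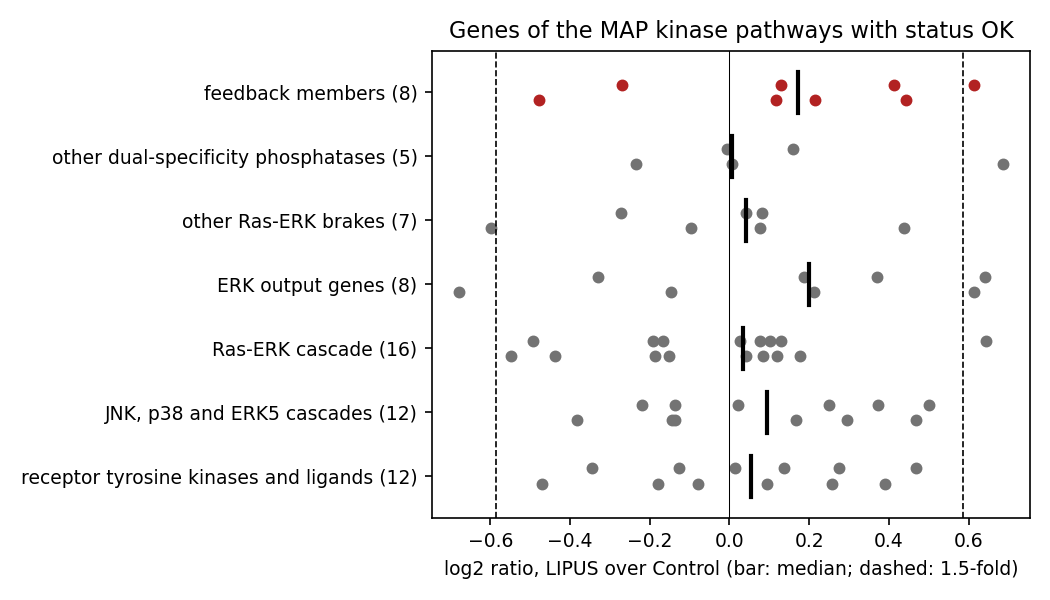
Log2 ratio of LIPUS over Control (horizontal axis) of each gene with status OK, by list, with the number of genes in brackets, a bar at the list's median and dashed lines at 1.5-fold. The feedback inhibitors (red) spread from -0.48 to 0.61 and the ERK output genes from -0.68 to 0.64, with medians of 0.17 and 0.20.

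The promoters of Dusp5 and Dusp1 are shown because these genes had the highest and the lowest ratio of the 8 members with status OK. RefSeq promoters (GRCm38.p6, 250 bases before to 50 bases after the start) were found for 8 of the 10 members, all but Dusp4 and Spry4. In Dusp5, at chr19:53528895-53529194 on the plus strand, the capitals mark 2 adjacent CArG boxes, the element bound by serum response factor. In Dusp1, at chr17:26508423-26508722 on the minus strand, the capitals mark a full cAMP response element (CRE).
Dusp5: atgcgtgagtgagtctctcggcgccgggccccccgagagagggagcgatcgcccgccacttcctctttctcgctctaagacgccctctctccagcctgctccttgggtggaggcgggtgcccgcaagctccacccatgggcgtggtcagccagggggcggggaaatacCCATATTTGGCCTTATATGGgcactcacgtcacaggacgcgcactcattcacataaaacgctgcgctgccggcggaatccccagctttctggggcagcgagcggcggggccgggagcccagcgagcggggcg
Dusp1: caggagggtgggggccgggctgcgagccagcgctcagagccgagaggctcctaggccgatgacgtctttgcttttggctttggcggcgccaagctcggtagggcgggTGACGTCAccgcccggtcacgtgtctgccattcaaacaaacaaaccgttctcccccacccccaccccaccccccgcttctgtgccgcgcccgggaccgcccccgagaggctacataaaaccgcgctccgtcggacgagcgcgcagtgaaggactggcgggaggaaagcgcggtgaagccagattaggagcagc
The letters searched on both strands were TGACGTCA (CRE), its core TGACG, which the CRE contains, TGANTCA (AP-1), GGAAGT (Ets), GCGTGGGCG (Egr), and the CArG box and NF-kB motifs by name. The CArG boxes of Dusp5 lie 82 to 73 and 72 to 63 bases before the start. A CArG box was held by 1.63% of the 32851 promoters in the table and by 1.39% of those of genes with status OK, and 2 or more by 0.0183% and 0.0244%. The CRE of Dusp1 lies 143 to 136 bases before the start and was held by 1.79% of all promoters and 3.20% of those of genes with status OK. The core TGACG alone, held by 20.8% of all promoters and 33.6% of those of genes with status OK, was found in Dusp1, Dusp2, Dusp5 and Spred2, and GGAAGT, held by 23.8% and 29.0%, in Dusp5 and Spred2. AP-1, Egr and NF-kB motifs, held by 7.81%, 0.612% and 4.51% of all promoters and by 4.80%, 1.21% and 5.30% of those of genes with status OK, were found in 0 members. No searched letters were found in the windows of Dusp6, Spry1, Spry2 and Spred1.

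Genes with these motifs, Dusp5 and Dusp1 among them, were counted in both directions. Of 106 genes with status OK and a CArG box in this window, 4.72% were at least 1.5-fold higher and 1.89% lower, beside 4.27% and 4.55% of the 6367 genes with status OK and a promoter. The higher share is 5 genes, and Dusp5 itself is one of them, so that it is no support for the Dusp5 value. Of 242 genes with a CRE, 5.79% were higher and 6.20% were lower.

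**Figure D4:**
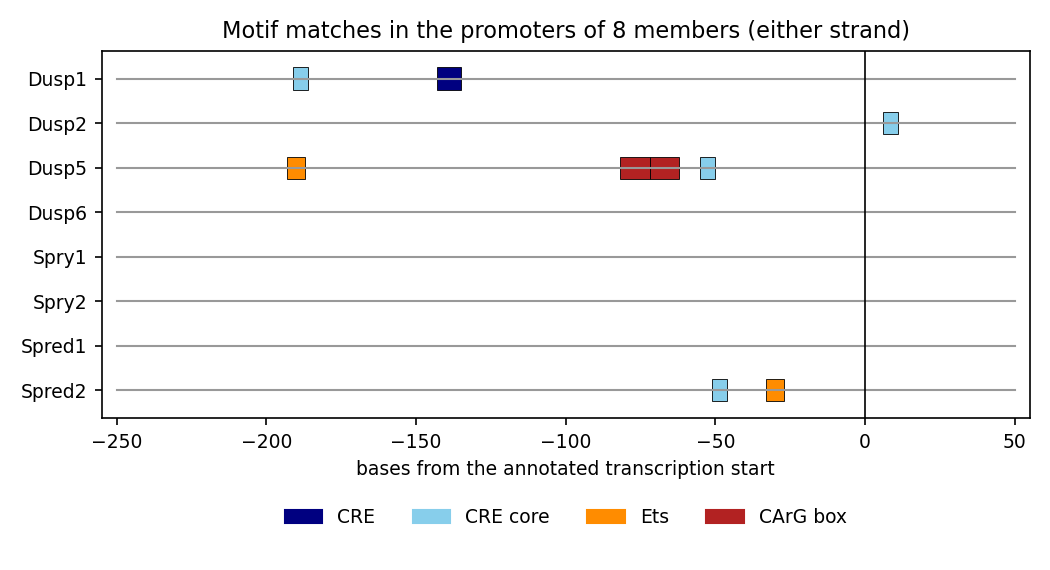
Positions of motif matches in the promoters of 8 members, in bases from the annotated transcription start (0), on either strand. The adjacent CArG boxes of Dusp5 (red) and the CRE of Dusp1 (dark blue) stand alone of their kind among these members; the pale blue bars mark the CRE core outside a full CRE.

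Short-lived transcripts often carry AU-rich elements in the 3′ UTR, and the members were read for these letters in GENCODE M21 transcripts. Copies of ATTTA per kilobase of 3′ UTR were highest in Dusp2 (6.88) and Dusp1 (5.80), and lowest in Dusp5 (0.902) and Dusp6 (0.841). The median over genes with status OK was 1.23, and 8 of the 10 members were above it. The longer TTATTTATT was found in Dusp1 alone among the members, in 2 copies, and in 6.44% of the 7888 genes with status OK that had a coding transcript. The stretch around the first copy, which begins at base 103 of the 3′ UTR of Dusp1, is shown because this gene went against the other phosphatases.
Dusp1 site: gctggtccTTATTTATTtaacaccc
The capitals mark the element. Over the 508 genes with status OK that hold it, the median log2 ratio was 0.02, and whether the element bears on the level of Dusp1 was not tested.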

How the data were processed

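RNA of 3 LIPUS and 3 Control cultures of MLO-Y4 cells was sequenced. Per the labels and methods, the authors used Trimmomatic 0.36 for trimming, TopHat2 2.1.0 with Bowtie2 2.2.6.0 for alignment to GRCm38, and, for expression, Cufflinks and Cuffdiff (Cufflinks 2.1.1 in the submitters' processing notes, 2.2.1 in the methods). The authors deposited 1 FPKM per group and gene, pooled over 3 libraries, with a status that says whether Cuffdiff tested the gene. The deposited table also holds the authors' fold changes, test statistics, p-values and q-values, which were not used here. It holds no value of a single library. The methods state 1 round read depth for all samples, and the depth of each library cannot be read from the table.

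The ratio of the FPKM values, LIPUS over Control, was taken on the log2 scale without a pseudocount, and genes with status OK were counted past 1.5-fold. Alternatives were a smaller fold (log2 ratio of 0.32), a fold of 2, pseudocounts of 1 and 0.1 FPKM, 3 scalings (median, upper quartile and TPM) and other filters on low values. Members, lists and the rule for named genes (those past 1.5-fold in a list, otherwise its 2 highest by mean FPKM) were chosen with earlier results of these data known. The 3′ UTR counts and the promoter motifs set against the ratios were added after the values were seen. Starts in the table were counted from 0 and raised by 1, which matched GENCODE M21. Python 3.11.15, numpy 2.4.6, pandas 2.3.3 and matplotlib 3.10.9 were used, and the steps were tested on simulated data. In addition, 1 result is not reported here.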

Additional observations from a re-analysis of the deposited data

How the results depend on the processing

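The count of members at least 1.5-fold higher was 1 in FPKM and turned to 0 in TPM, to 3 at the smaller fold (log2 ratio of 0.32), to 0 at a fold of 2, and to 2 when members without a test were admitted, which adds Spry1. The count of lower members turned from 0 to 1 at the smaller fold (log2 ratio of 0.32). The TPM scaling moved every log2 ratio by 0.0457, and that alone took Dusp5 below the fold. The median log2 ratio of the tested members ranged from 0.13 (TPM) to 0.18 (upper quartile). Of 50 member values under the pseudocounts and scalings, 0 changed sign and 2 moved by more than 0.1, both of Spry1, whose log2 ratio of 1.21 turned to 0.14 with a pseudocount of 1 FPKM and to 0.67 with 0.1 FPKM. No replicate could be left out, and no paired analysis was possible because the table holds no value of a single library. The planned comparison of the members' protein sequences was not run. Counting error could not be given, since the table holds no counts or depths of its libraries, and the levels of Spry1 and Spry4 are too low to compare.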
